A study of Homo sapiens with 4 samples.

Results

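The cell cycle is driven by cyclins, proteins that accumulate and are destroyed in turn, and by the cyclin-dependent kinases (CDKs) that they switch on. The mRNAs of 10 of these genes were examined in HEK293 cells, out of 17217 named genes that the array measured. They were the cyclins CCNA2, CCNB1, CCND1, CCND2, CCND3 and CCNE1 and the kinases CDK1, CDK2, CDK4 and CDK6. A probe was taken for one of these genes when the RefSeq accession in its name belonged to it. All 10 were found, with 36 probes in 12 targets. HEK293, a common host for expressing foreign genes, descends from kidney cells of a human embryo into which adenoviral DNA was introduced. The 4 replicates were untreated plates of this line, grown in DMEM with 10% serum, extracted at confluence, and each gave its own RNA and its own single-colour array. In RNA from a whole plate, fewer cells in a phase of the cycle and less mRNA per cell cannot be told apart. There was 1 group, so no condition was set against another.

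D-type cyclins are made in response to growth signals and pair with CDK4 and CDK6, which begin the phosphorylation of the retinoblastoma protein and so release E2F transcription factors. Cyclin E with CDK2 drives entry into S phase, cyclin A acts with CDK2 and CDK1 through S phase and G2, and cyclin B with CDK1 drives mitosis. INK4 proteins inhibit CDK4 and CDK6, and CIP/KIP proteins bind a wider set of cyclin-CDK complexes. Adenoviral E1A protein is known to bind the retinoblastoma protein.

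Levels are log2 array signals, and a gene's level is the mean of its targets, each the log2 of the mean of its probes. The baseline of an array was the mean plus 2 SD of the levels of genes for seminal proteins, and a gene was called detected when its level, averaged over the arrays after subtracting this value, was above 0. This difference is called the distance. The choice of these control genes follows the study's methods. The baseline was 9.47, 9.94, 10.69 and 10.32 on replicates 1 to 4. Since each probe has its own affinity, the levels of different genes are not compared as amounts of mRNA. Seminal proteins SPATA5 and SPATA13 lay above the other controls, and without them the baseline fell by several log2 units, from 10.10 to 7.78. The values of replicates 1 and 2 shared 1 distribution and those of replicates 3 and 4 another, so differences between arrays are given within these pairs too. Of 8 adult kidney markers only LRP2 was detected, and of 5 kidney development genes WT1 and SIX2 were. SIX2 stood at only 0.04 log2 units (limma adjusted p = 0.87), limma called WT1 alone of the 5, and none of them passed the baseline on all arrays (0 of 5). Of 6 markers of blood and endothelium none was detected (0 of 6). Of all named genes, 52.7% were detected, limma called 45.9%, and 45.0% passed the baseline on all arrays.

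HEK293 cells had message for every cyclin and kinase of the set. All 10 were detected, where 52.7% of all named genes were. On each of the 4 arrays taken singly, all 10 passed it too (45.0% of all named genes), and limma called all 10 (45.9%). Their mean distances ran from 2.02 log2 units for CCND3 to 5.03 for CDK4, with a median of 3.67, where the median of all named genes was 0.26. The count stayed at 10 detected under each alternative baseline, probe summary, normalization and subset of arrays that was run. The share of all named genes detected ran from 39.1% with a baseline of 3 SD to 74.0% without SPATA5 and SPATA13. The single lost limma call was CCND3 with a baseline of 3 SD, at a distance of 0.70 (adjusted p = 0.111).

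**Figure D1:**
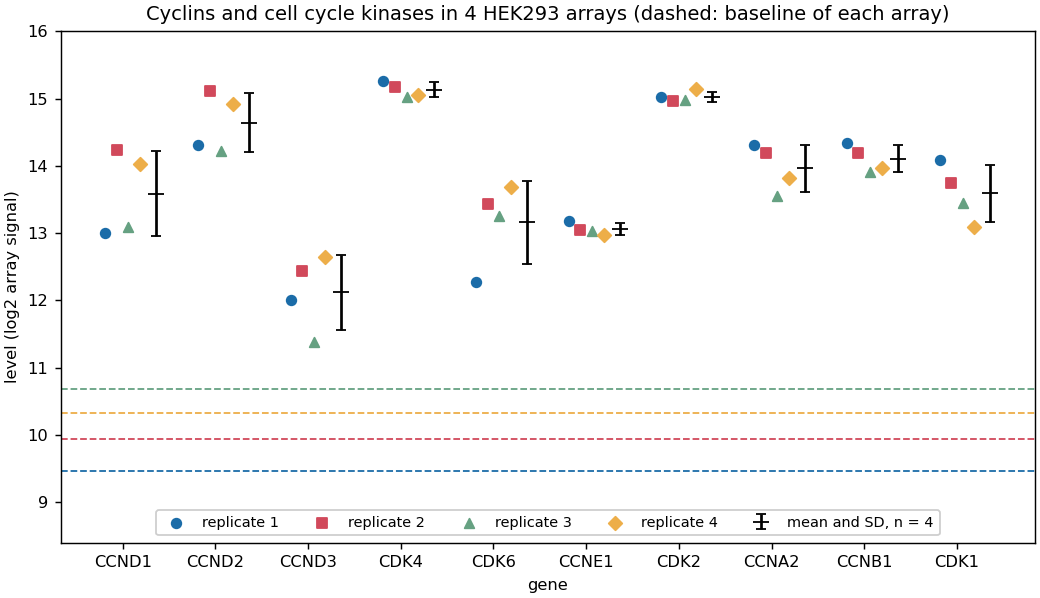
Level of each gene (log2 array signal, vertical axis) on each of the 4 arrays, with the mean and SD beside it; dashed lines mark the baseline of each array in the same colour. Every point lies above its own array's baseline, closest for CCND3 on replicate 3 (0.70 log2 units), and the 3 D-type cyclins and CDK6 are higher on replicates 2 and 4 than on replicates 1 and 3.

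All 3 D-type cyclins were detected. CCND1, the D cyclin most often amplified in tumours, had levels of 13.00, 14.23, 13.09 and 14.03 on replicates 1 to 4 (log2 signal). Replicates 2 and 4 were the high ones and did not overlap with the others. Its distance to the baseline was 3.48 ± 0.79 log2 units (SD, n = 4). CCND2 had levels of 14.31, 15.12, 14.23 and 14.92, again with replicates 2 and 4 apart from the rest. Its distance was 4.54 ± 0.71 (SD, n = 4). CCND3 had levels of 12.01, 12.44, 11.39 and 12.65, with the lowest value on replicate 3 and the highest on replicate 4. Its distance of 2.02 ± 0.88 (SD, n = 4) was made up of 2.54, 2.51, 0.70 and 2.32. For each of these cyclins the distance was larger than the spread between arrays.

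The kinases that D cyclins activate were both detected. CDK4 had levels of 15.27, 15.18, 15.03 and 15.06, a range of 0.24 log2 units. Its distance was 5.03 ± 0.63 (SD, n = 4). These values approach the highest in the table, 15.99, and whether its spots were saturated could not be examined in the deposited values. The first and second CDK4 probes averaged 15.43 and 15.40 and ranged over 0.42 and 0.28, while the third averaged 14.17 and ranged over 1.74. The narrow range of the gene is therefore not read as a steady mRNA level. CDK6 had levels of 12.27, 13.44, 13.26 and 13.68, a range of 1.42. Its distance was 3.06 ± 0.45 (SD, n = 4). This was the widest range of the 10 genes, with replicate 1 as the low array. The median SD of a level was 0.39 over the 10 genes and 0.42 over all named genes.

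CCNE1 and its partner CDK2 were both detected. CCNE1, which brings cells into S phase, had levels of 13.18, 13.05, 13.04 and 12.97 and a distance of 2.96 ± 0.60 (SD, n = 4). CDK2 had levels of 15.02, 14.97, 14.98 and 15.14 and a distance of 4.92 ± 0.52 (SD, n = 4). The SD of the level was 0.09 for CCNE1 and 0.08 for CDK2, so most of the spread in their distances is that of the baseline, whose own SD was 0.52. CDK2 was also near the top of the scale, so the same limit holds for its range as for CDK4.

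The genes of S phase, G2 and mitosis were detected as well. CCNA2, the S phase and G2 cyclin, had levels of 14.30, 14.19, 13.55 and 13.82 and a distance of 3.86 ± 0.87 (SD, n = 4). CCNB1, the mitotic cyclin, had levels of 14.35, 14.19, 13.91 and 13.97 and a distance of 4.00 ± 0.72 (SD, n = 4). CDK1, the kinase of mitosis, had levels of 14.09, 13.74, 13.44 and 13.10 and a distance of 3.49 ± 0.90 (SD, n = 4). In each of these 3 genes, and in CCNE1 and CDK4, both of replicates 3 and 4 lay below both of replicates 1 and 2. By gene level this order was thus found in 5 of the 10 genes and in 18.3% of all named genes, and the opposite one in 0 of the 10 and in 25.0%. Single probes did not all have it. The first probes of CCNA2 and CCNE1 and the second probes of CCNB1 and CDK4 were highest on replicate 3. The third probe of each of these genes had the order. With the median of its 3 probes, CCNB1 read 14.13 on replicate 2 and 14.14 on replicate 4. CDK4 read 15.46 on replicate 1 and 15.47 on replicate 3, so by that median neither gene had the order. The counts of genes given here are by the mean of the probes. In CDK1 only 1 of 2 targets had it, the other reading 14.03 on replicate 2 and 14.08 on replicate 3. In CCNE1 the levels of replicates 2 and 3 were 13.05 and 13.04. It was noticed in these data and not tested. That division is also the one between the pairs of arrays with separate distributions, so that a difference between plates and one between distributions cannot be told apart.

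Another order of the arrays was shared by the 3 D cyclins and CDK6. It had been seen in these data before, so the counts are descriptions and were not tested. In 4 of the 10 genes, CCND1, CCND2, CCND3 and CDK6, both of replicates 2 and 4 lay above both of replicates 1 and 3, as they did in 18.5% of all named genes. The opposite order occurred in 0 of the 10 and in 22.2% of all named genes. Within the pairs, CCND1 was 1.23 log2 units higher on replicate 2 than on replicate 1 and 0.94 higher on replicate 4 than on replicate 3. The same differences were 0.81 and 0.69 for CCND2, 0.44 and 1.26 for CCND3, and 1.17 and 0.43 for CDK6. Over all named genes the 5th and 95th percentiles were -1.18 and 1.39 for the first difference and -1.16 and 1.11 for the second. Only the second difference of CCND3 lay beyond them. Level differences of this sign in both pairs were found in 4 of the 10 genes and 29.7% of all named genes. Differences of the opposite sign in both pairs were found in 2 of the 10, CCNE1 and CDK1, and in 35.3%. Those of CCNE1 were -0.13 and -0.06, and those of CDK1 were -0.35 and -0.35.

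The order was also read in single probes. The gene levels that showed it were made from these same probes, so the probes are no separate support for it. Each of the 3 probes of CCND1, of CCND2 and of CCND3 had replicates 2 and 4 above both other arrays. So had 2 of 3 CDK6 probes, 2 of the 24 probes of the other 6 genes, and 16.5% of all probes of named targets. With the mean of log2 probe values CDK6 dropped out and the count was 3, and with the median of the probes CDK2 joined and it was 5. The opposite order was then found in 1 of the 10 genes with that median, with the highest target and with all arrays quantile normalized together.

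**Figure D2:**
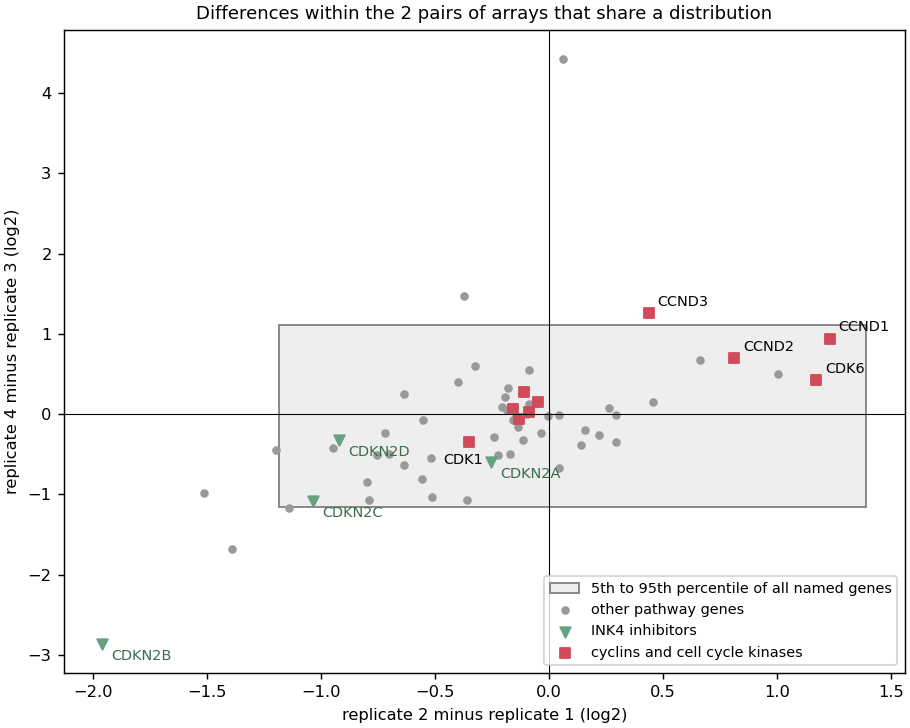
Difference of level between replicates 2 and 1 (horizontal axis) and between replicates 4 and 3 (vertical axis), in log2 units, for the 10 genes, the 4 INK4 inhibitors and the other pathway genes; the grey box spans the 5th to 95th percentiles of all named genes on each axis. CCND1, CCND2, CCND3 and CDK6 lie to the upper right of the origin and the INK4 inhibitors to its lower left, where the values of CDKN2B and CDKN2D on replicates 2 and 4 are below the baseline.

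The probes of a gene did not always move together. A range over the 4 arrays of more than 2 log2 units was found in 5 of 36 probes (13.9%) and in 20.9% of all probes of named targets, a limit chosen after the values were seen. The widest was the second probe of CDK6, at 12.39, 7.32, 12.39 and 12.41 on replicates 1 to 4. Its value on replicate 2 was below that array's baseline. The first CDK6 probe read 11.18, 14.27, 13.82 and 14.33, 3.15 log2 units between its lowest and its highest array. The third read 12.79, 13.70, 13.22 and 13.71, so both were lowest on replicate 1.

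On replicate 3 single probes of several genes fell while their neighbours did not. The second CCNA2 probe read 12.00 there and 14.14 to 14.37 on the other arrays. The first CCNB1 probe read 12.49 against 14.13 to 14.37, and the third CDK4 probe 12.95 against 14.48 to 14.69. Of 36 probes, 13 were lowest on replicate 3, and so were 22.3% of all probes of named targets. Of the 5 wide probes, 3 had their minimum there, those of CCNA2, CCND3 and CDK1. Their part in the lower levels of replicate 3 was not tested.

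**Figure D3:**
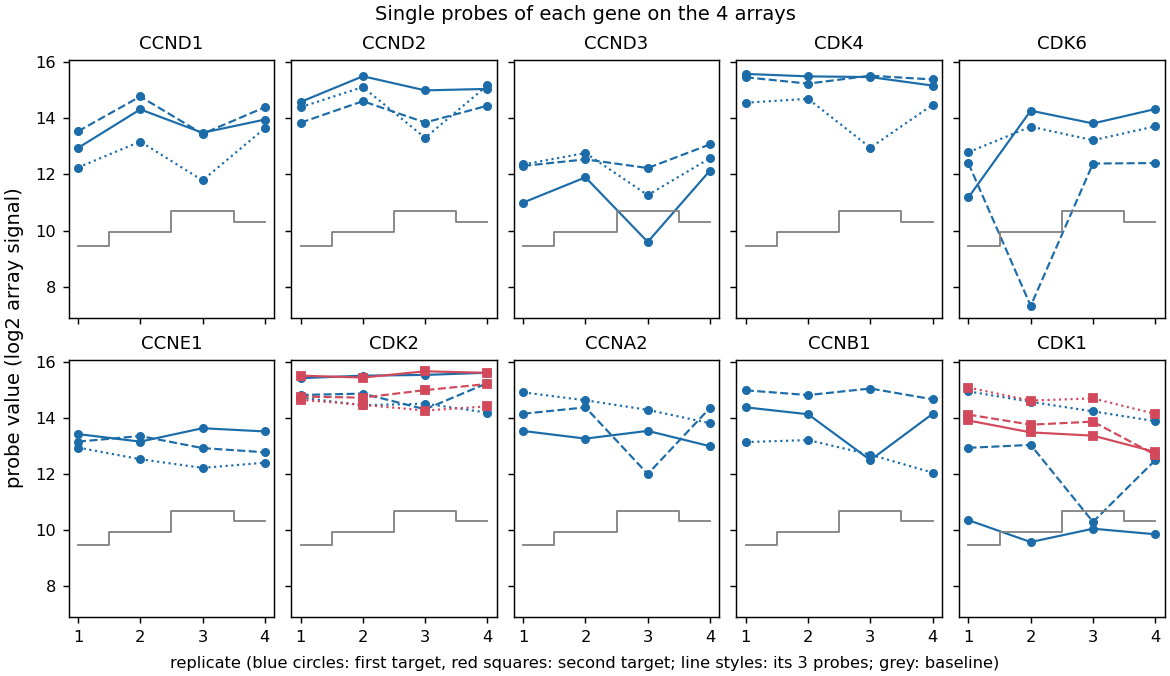
Value of each probe (log2 array signal, vertical axis) on replicates 1 to 4 (horizontal axis), 1 panel per gene; line styles mark the 3 probes of a target, colours its first and second target, and the grey step the baseline. The drop of the second CDK6 probe to 7.32 on replicate 2 and the dips of single probes on replicate 3 stand apart from the other lines.

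CDK1 and CDK2 were each measured by 2 targets. The targets of CDK1 had means of 13.20 ± 0.46 and 13.98 ± 0.45 log2 units (SD, n = 4), each past the baseline on every array. The lower one holds the weakest of the 36 probes, which read 10.35, 9.58, 10.05 and 9.85 and passed the baseline on replicate 1 alone. Its other probes averaged 12.19 and 14.41. The targets of CDK2 had means of 15.01 ± 0.10 and 15.04 ± 0.09 (SD, n = 4). The position numbers of their 3 probes differ by 102 each, so that they may lie at the same places in 2 transcripts, but no probe sequences were used to check it. Corresponding CDK2 probes differed by 0.00 to 0.25 on the same array, except for a difference of 0.68 at the second probe on replicate 3. Among 486 such probe pairs of 162 genes the median absolute difference was 0.26. Between 2 arrays the median absolute difference of a probe was 0.49 to 0.69.

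Promoter sequences were matched for 7 of the 10 genes (all but CCND1, CCND2 and CDK2), in 11 windows of 250 bases before and 50 after a transcript start (RefSeq, GRCh38.p14). Of these, 5 are shown, for CCNA2, CCNB1, CDK1, CCND3 and CDK6, and their letters are not set against the array patterns. Capitals mark matches on either strand to the CHR element TTTGAA, which many G2 and mitosis genes carry, the CCAAT box, the GC box GGGCGG, and the E2F words TTTCGCGC, TTTGGCGC, TTTCCCGC and TTTGCCGC. None of the marked matches overlap. Where a gene has several starts, the one shown was chosen after the matches were seen. The CCND3 window shown has no CCAAT box, but 2 of the 3 CCND3 windows have 1. The CDK6 window shown has 3 GC boxes, and the other CDK6 window has none.
CCNA2, chr4:121823834-121824133, minus strand: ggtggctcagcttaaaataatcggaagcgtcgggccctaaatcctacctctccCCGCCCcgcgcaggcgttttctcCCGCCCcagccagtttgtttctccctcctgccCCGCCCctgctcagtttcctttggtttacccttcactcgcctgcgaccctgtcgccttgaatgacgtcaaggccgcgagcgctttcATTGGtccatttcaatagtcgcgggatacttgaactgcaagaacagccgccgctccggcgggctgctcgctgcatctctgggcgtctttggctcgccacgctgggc
CCNB1, chr5:69166900-69167199, plus strand: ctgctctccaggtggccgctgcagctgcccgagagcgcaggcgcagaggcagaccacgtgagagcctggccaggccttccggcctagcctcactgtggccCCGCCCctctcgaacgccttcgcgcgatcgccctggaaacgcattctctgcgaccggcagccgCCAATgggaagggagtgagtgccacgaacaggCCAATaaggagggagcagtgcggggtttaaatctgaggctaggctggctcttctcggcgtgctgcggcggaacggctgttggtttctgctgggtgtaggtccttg
CDK1, second of 2 starts, chr10:60778228-60778527, plus strand: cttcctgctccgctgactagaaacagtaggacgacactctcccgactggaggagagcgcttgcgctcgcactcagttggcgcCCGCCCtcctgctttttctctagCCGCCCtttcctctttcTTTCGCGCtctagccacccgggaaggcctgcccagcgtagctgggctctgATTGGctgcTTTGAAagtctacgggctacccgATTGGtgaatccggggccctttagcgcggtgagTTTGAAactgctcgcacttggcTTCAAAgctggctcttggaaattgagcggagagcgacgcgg
CCND3, first of 3 starts, chr6:42048639-42048938, minus strand: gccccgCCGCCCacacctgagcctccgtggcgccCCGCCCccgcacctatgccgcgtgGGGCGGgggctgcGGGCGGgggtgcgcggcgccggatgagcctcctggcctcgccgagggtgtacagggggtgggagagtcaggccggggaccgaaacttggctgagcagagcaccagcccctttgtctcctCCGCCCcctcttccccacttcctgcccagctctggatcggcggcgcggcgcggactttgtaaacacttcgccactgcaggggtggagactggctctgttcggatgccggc
CDK6, first of 2 starts, chr7:92836524-92836823, minus strand: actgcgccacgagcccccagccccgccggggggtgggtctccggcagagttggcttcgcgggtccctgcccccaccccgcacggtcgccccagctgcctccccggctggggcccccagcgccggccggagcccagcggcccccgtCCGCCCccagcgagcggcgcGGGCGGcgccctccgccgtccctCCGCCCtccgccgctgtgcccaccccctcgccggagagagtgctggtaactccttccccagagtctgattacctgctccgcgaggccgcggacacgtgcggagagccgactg

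CDK1 was the only gene of the 7 with the CHR word TTTGAA or one of these E2F words. Other forms of the CHR and E2F elements were not searched for, so their absence from the other windows is not implied. Its pair of windows overlap and share the E2F word, and its window shown above holds 3 CHR words, 2 CCAAT boxes, 1 E2F word and 2 GC boxes. CHR words occur in 2 of the 11 windows, both of CDK1, and in 15.2% of 35116 promoter windows. These E2F words occur in the same 2 windows and in 3.31% of all. CCAAT boxes lie in 6 of the 11 windows, those of CCNA2, CCNB1, CCND3 and CDK1 among them, and in 34.6% of all windows. GC boxes lie in 9 of the 11 windows, at least 1 window for each of the 7 genes, and in 45.0% of all windows. A TATA box, TATAAA, lies in none of the 11 and in 11.5% of all. These matches describe the letters of the windows only.

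The regulators around the cyclins were then examined, from lists of 55 pathway genes of which 52 were matched. Of the 52, 48 were detected (52.7% of all named genes), and 43 passed the baseline on each array (45.0%). Limma called 45 of the 52 (45.9% of all named genes). The same shares of all named genes stand beside the counts of each list below. CCNB3, CDKN2D, CDKN1C and FZR1 were not detected.

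Of the INK4 inhibitors, the specific inhibitors of CDK4 and CDK6, 3 of 4 were detected by the mean distance (52.7% of all named genes). Limma called 2 of 4, near its share of all named genes (45.9%). CDKN2A stood at 1.70 ± 0.42 log2 units and CDKN2C at 0.99 ± 0.77 (SD, n = 4 for each), and both passed the baseline on each array. The CDKN2A level is the mean of 3 targets, and which product of the gene each target stands for was not examined. The level of CDKN2B was 11.55, 9.59, 11.52 and 8.66 on replicates 1 to 4. Its distance of 0.22 ± 1.60 (SD, n = 4) was above 0 on replicates 1 and 3 alone (limma adjusted p = 0.52). CDKN2D stood at -1.19 ± 0.83 (SD, n = 4). In CDKN2A and CDKN2C, the genes of this family that passed the baseline on each array, both of replicates 2 and 4 lay below both of replicates 1 and 3, as in 22.2% of all named genes and opposite to the order of the D cyclins. CDKN2B and CDKN2D had the same order, but CDKN2B was below the baseline on replicates 2 and 4 and CDKN2D on replicates 2, 3 and 4, so that part of their order is one of background signals. With the mean of log2 probe values CDKN2A no longer had it. Over the 52 pathway genes, those below the baseline included, this order was found in 22 (42.3%), and that of the D cyclins in 1, SKP2, which encodes a ubiquitin ligase subunit. Under the other summaries and normalization these counts were 17 to 23 and 1 to 3. No label separates replicates 2 and 4 from 1 and 3, and what the difference goes with was not tested.

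Of the CIP/KIP inhibitors CDKN1A, the p21 gene, stood at 3.61 ± 0.79 log2 units (SD, n = 4). CDKN1B, the p27 gene, had distances of 2.36, 0.38, 0.24 and -0.37 on replicates 1 to 4, a mean of 0.65 that limma did not call (adjusted p = 0.068). CDKN1C lay far below the baseline at -3.62 ± 0.46 (SD, n = 4). Of the 3 genes of this family, limma called CDKN1A alone.

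The enzymes that switch CDKs on were detected. All 3 subunits of the CDK-activating kinase passed the rule, with CDK7 at 2.82 ± 0.96 and MNAT1 at 1.81 ± 0.88 (SD, n = 4 for each). The third, CCNH, had distances of 3.00, 2.59, -2.92 and 1.86, and its level on replicate 3 was 7.77 against 12.19 to 12.53 elsewhere. Its limma adjusted p was 0.0016, and 0.18 when limma's prior was robust and followed the level. The phosphatases that remove inhibitory phosphate from CDKs stood at 3.06 ± 0.82 for CDC25A, 5.29 ± 0.58 for CDC25B and 3.52 ± 0.57 for CDC25C (SD, n = 4 for each). WEE1, which adds that phosphate, stood at 2.92 ± 0.87 and PKMYT1 at 1.35 ± 1.03 (SD, n = 4 for each), the latter below the baseline on replicate 3.

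Genes for the destruction of cyclins and its control, and genes for mitosis, were detected almost throughout. Of 9 genes of cyclin ubiquitin ligases, their partners and their regulators, 8 were detected. SKP2 stood at 4.33 ± 0.57 and FBXW7, which marks cyclin E for destruction, at 1.64 ± 0.70 (SD, n = 4 for each). Of the activators of the anaphase-promoting complex, CDC20 stood at 4.72 ± 0.65 and FZR1 at -1.77 ± 0.46 (SD, n = 4 for each), FZR1 below the baseline on every array. All 8 mitotic and proliferation genes were detected, from MKI67 at 2.86 ± 0.71 to PLK1 at 5.21 ± 0.56 (SD, n = 4 for each). The CKS subunits, which bind CDKs, and the phosphatase gene CDKN3 were all detected, with CKS1B at 4.52, CKS2 at 4.03 and CDKN3 at 2.00 log2 units. The cyclin CCNB2 stood at 3.02 ± 0.95 (SD, n = 4) and CCNB3 at -1.10 ± 0.96 (SD, n = 4).

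Among the targets of the CDKs, all 8 retinoblastoma and E2F genes were detected. RB1 stood at 1.88 ± 0.73, E2F1 at 1.65 ± 0.85 and E2F5 at 0.66 ± 0.97 (SD, n = 4 for each), and E2F5 alone of the 8 was not called by limma (adjusted p = 0.064). The transcription kinases and cyclins, relatives that act on RNA polymerase rather than on the cell cycle, gave 7 of 7. The 10 reference genes were all detected, with a median distance of 4.10, and the median was 2.98 over the pathway genes.

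**Figure D4:**
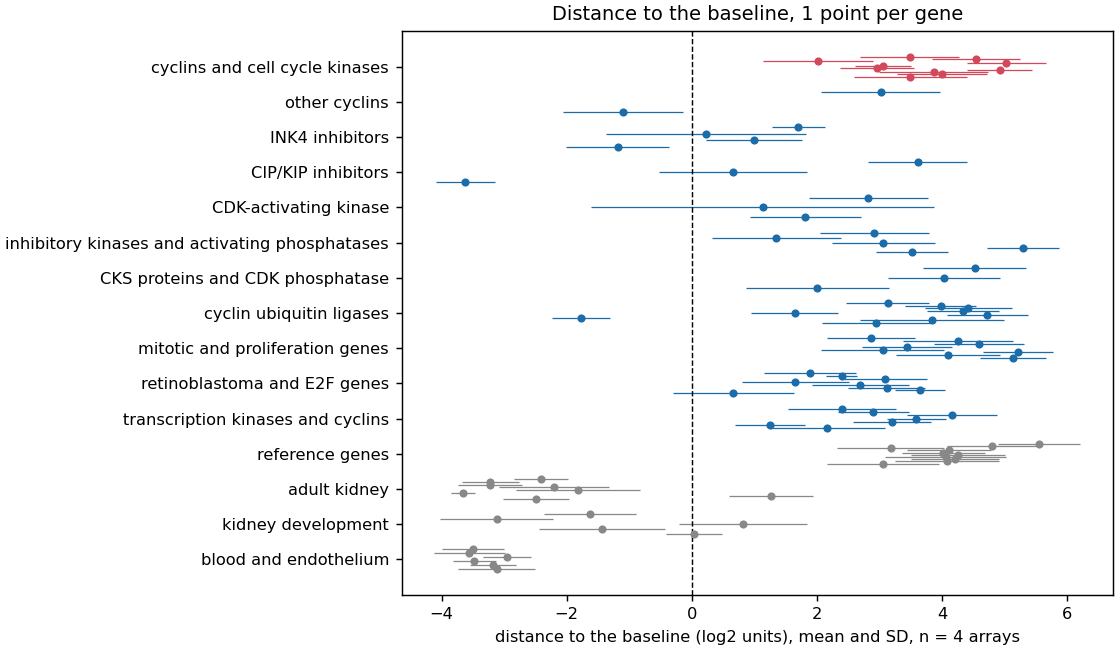
Mean distance to the baseline (log2 units, horizontal axis) with its SD over 4 arrays, 1 point per gene, for the 10 cyclins and kinases (red), the pathway lists (blue), and reference and tissue marker lists (grey). The 10 genes lie between 2.02 and 5.03, the INK4 and CIP/KIP inhibitors reach down to -3.62, and the blood and endothelium markers all lie below 0.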

How the data were processed

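Total RNA of 4 HEK293 plates was copied from an oligo(dT) primer into double-stranded cDNA and labelled with Cy3 from random primers, so strands were not told apart, and hybridised to NimbleGen HG18 arrays of 3 probes per target. The deposited table holds log2 values made by the authors, 1 for each of 71998 probes (24000 targets) on an array. The submitters' processing notes name RMA, with no version. Sorted values matched to 0.01 at 99.97% of ranks between replicates 1 and 2, at 99.99% between 3 and 4, and at no more than 1.25% between other arrays. No raw intensities were used. The number of arrays limits the precision.

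Accessions were matched without versions to RefSeq genes (GRCh38.p14), naming 19125 targets of 17217 genes. Of the 11 seminal control genes 10 were matched. Distances were tested against 0 (one-sided) with limma 3.58 in R 4.3 over all 17217 genes, with Benjamini-Hochberg adjustment and a threshold of 0.05. All genes took the same standard error, 0.351, and a shift of a baseline moves all genes of an array together. An exact sign-flip test of 4 arrays cannot go below 0.0625. The fit was run on simulated data with independent noise of 1 common SD. It called 40.3% of genes set at a distance of 1 log2 unit and 100% of those at 2 or 3. Those data hold no shared shift of a baseline, so the run cannot show how such a shift affects the calls. Alternatives varied the baseline, the controls, the probe summary, the normalization, the limma prior, a filter on low levels and the arrays used. The genes and lists were chosen with earlier results of these data known. Named genes were the 10 members, the controls and the genes of the lists.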

Additional observations from a re-analysis of the deposited data

Results flagged for a closer look

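Of 101 sets of 4 values looked at, 6 had an array whose gap to the nearest other array, divided by the range, passed Dixon's critical value for 4 samples, and about 1 in 20 is marked by chance. All 6 are distances to the baseline, and no level of the 10 genes was marked. Levels of the other listed genes were not among the sets. CCNH is such a gene and is not among the 6. Its level was 7.77 on replicate 3 against 12.19 to 12.53 on the other arrays. CCND3 stood 0.70 log2 units from the baseline on replicate 3 but 2.32 to 2.54 elsewhere, which gives a ratio of 0.884. Replicate 3 had the highest baseline, and all 3 CCND3 probes were lowest on it.

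In 4 genes the distance on replicate 1, the array with the lowest baseline, stood above the rest. They were E2F1 with a ratio of 0.944, CDK9 with 0.895, CCNT1 with 0.839 and the reference gene GAPDH with 0.906. The endothelial marker VWF was highest on replicate 4, at -2.63, with a ratio of 0.948. By level, before the baseline is subtracted, CDK9 and CCNT1 were highest on replicate 3. Their levels on replicates 1 and 3 were 13.22 and 13.38 for CDK9 and 11.55 and 11.64 for CCNT1. E2F1 and GAPDH were highest on replicate 1 by level too. The part of the baseline in these values was not tested.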

How the results depend on the processing

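The 10 genes were detected under each of 16 alternatives, and limma called 10 under 16 of 17 alternatives and 9 with a baseline of 3 SD. Of 170 alternative distances of single genes, 169 stayed on the same side of 0 and of the limma threshold, and CCND3 with 3 SD was the exception. Of 52 pathway genes, 48 were detected, and the count ran from 42 with 3 SD to 51 without SPATA5 and SPATA13 or with olfactory receptor genes as controls. The share of all named genes detected moved with the same settings, from 52.7% to 39.1% with 3 SD. It was 74.0% without SPATA5 and SPATA13 and 71.4% with the olfactory receptor genes. Levels moved by more than their SD for CCNB1, CDK1, CDK2 and CDK4 with the mean or the median of log2 probe values, and the other 32 of 40 alternative levels did not. The count of genes higher on both of replicates 2 and 4 was 3 with the mean of log2 probe values, 5 with their median, and 4 with the highest target or with all 4 arrays quantile normalized together; these alternatives were chosen after seeing the data. Leaving out each replicate in turn ended no call among the 10 genes. Background correction and saturation could not be varied, since no raw intensities were used.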
